A study of Homo sapiens with 6 samples.

Results

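The 10 genes described here encode ligands, extracellular binding proteins, receptors and feedback inhibitors of transforming growth factor beta (TGF-beta) and activin signalling. They were chosen by name, and 10 of 10 were present among the 17911 genes of the deposited expression table. Poly(A) RNA of LX-2, an established line of human hepatic stellate cells, was sequenced in 3 libraries of cells with a mutation in exon 3 of MPI (MPI MT) and 3 libraries of wild-type cells (WT). The product of MPI is an isomerase that links glycolysis to the mannose used for protein glycosylation. Cells of both genotypes were maintained in serum-containing DMEM, and the labels name no added ligand or inhibitor. The labels do not say how the mutation was made or whether the mutant cells came from 1 clone, and nothing in them ties the libraries of a genotype to separate cultures. The p-values thus speak only to library-to-library spread, and that may be technical.

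TGF-beta and activin ligands are secreted dimers of one protein family. TGF-beta leaves the cell bound to its own propeptide, and latent TGF-beta binding proteins such as LTBP1 tether that inactive complex to the matrix, whereas activin is held in check mainly by soluble follistatin. Both ligand types assemble a complex of type II and type I receptor kinases, which phosphorylate SMAD2 and SMAD3. These enter the nucleus with SMAD4 and switch on, among other genes, inhibitors of the same pathway, such as SMAD7, SKIL and PMEPA1. In the liver, TGF-beta is the best-known inducer of matrix production by stellate cells.

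Recovered reads over the listed genes were 31966756 to 34970840 per MPI MT library and 27037905 to 33991848 per WT library. MPI transcripts were present in both genotypes, at 1051, 978 and 1035 normalised counts in the MPI MT libraries and 1292, 1283 and 1256 in the WT libraries (log2 fold change -0.32 ± 0.07, SE; limma adjusted p = 0.00648), and a gene-level count cannot show the sequence of the exon. MPI shares 2233 exonic bases with FAM219B on the other strand. The library numbered 1 stood apart from the other two in both genotypes, on a second principal component that held 15.9% of the variance against 71.8% on the first. Of 16 stellate and fibroblast markers, 13 were among the listed genes, and DES, LRAT and DCN were not. The 13 summed to 182709 to 212598 normalised counts in MPI MT and 160923 to 168911 in WT libraries. By the test described below, 2 of them rose and 5 fell. For these and the marker counts that follow, 16.0% of all tested genes rose and 16.6% fell. COL1A1 and VIM were abundant in both genotypes, whereas LUM averaged 0.963 ± 0.053 in MPI MT and 38.9 ± 3.83 in WT libraries (SD, n = 3 each). These markers are examples picked by no set rule. ACTA2 was among the 5 that fell (log2 fold change -0.97, limma adjusted p = 2.32e-04). Endothelial markers (5 of 6 listed, 2 rose) summed to 519.9 to 761 in MPI MT and 186 to 232 in WT libraries, with CDH5 not listed. Leukocyte markers (4 of 6 listed, 2 rose and 1 fell) summed to 296 to 324 in MPI MT and 498 to 579 in WT libraries, with CD3E and MS4A1 not listed. The hepatocyte list had 1 of 6 genes listed, SERPINA1, at 62.4 to 105 in MPI MT and 155 to 173 in WT libraries, with ALB not listed. Epithelial markers (4 of 6 listed, 1 rose) summed to 11113 to 14972 in MPI MT and 11135 to 18456 in WT libraries, with EPCAM and CDH1 not listed. Their part in the results below was not tested, and in bulk RNA a change in the share of cells and a change in RNA per cell cannot be told apart.

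SMAD proteins are known to bind the short box CAGAC. Of the 7 genes that passed the test described below, the 6 with a CAGAC box in a promoter window are shown, chosen for holding it. TGFB1 passed too and has no such box in any RefSeq window of it. The sequences are RefSeq windows (GRCh38.p14) from 250 bases before to 50 bases after an annotated start, given 5′ to 3′ on the gene's strand, with CAGAC or its reverse complement GTCTG in capitals. Where RefSeq lists several starts, the first listed window with a CAGAC box is shown (RefSeq gives 3 windows for LTBP1, 3 for SMAD7 and 4 for PMEPA1). The TGFB2 window lies before the gene start given in GENCODE 29, and the windows of INHBA, SMAD7 and PMEPA1 lie wholly inside the gene given there. Which start these cells used was not measured.
INHBA promoter, chr7:41703041-41703340, minus strand: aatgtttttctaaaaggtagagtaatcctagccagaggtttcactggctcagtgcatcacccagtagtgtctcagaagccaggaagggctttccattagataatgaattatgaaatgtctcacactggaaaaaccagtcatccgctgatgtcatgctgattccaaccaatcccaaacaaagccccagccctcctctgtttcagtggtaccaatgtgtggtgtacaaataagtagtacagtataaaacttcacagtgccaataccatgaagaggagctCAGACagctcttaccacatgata
TGFB2 promoter, chr1:218345086-218345385, plus strand: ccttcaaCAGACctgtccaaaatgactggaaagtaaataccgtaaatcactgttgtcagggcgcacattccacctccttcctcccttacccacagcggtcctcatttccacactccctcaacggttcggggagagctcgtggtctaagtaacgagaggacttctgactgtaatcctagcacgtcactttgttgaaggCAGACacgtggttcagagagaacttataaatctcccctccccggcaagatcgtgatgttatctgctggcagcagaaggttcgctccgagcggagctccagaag
LTBP1 promoter, chr2:32946703-32947002, plus strand: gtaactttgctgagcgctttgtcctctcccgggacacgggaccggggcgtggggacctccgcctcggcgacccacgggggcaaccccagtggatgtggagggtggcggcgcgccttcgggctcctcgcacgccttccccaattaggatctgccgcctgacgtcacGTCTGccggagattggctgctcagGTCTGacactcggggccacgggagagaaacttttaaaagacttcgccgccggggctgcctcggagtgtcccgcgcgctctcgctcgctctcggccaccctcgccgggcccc
SKIL promoter, chr3:170357465-170357764, plus strand: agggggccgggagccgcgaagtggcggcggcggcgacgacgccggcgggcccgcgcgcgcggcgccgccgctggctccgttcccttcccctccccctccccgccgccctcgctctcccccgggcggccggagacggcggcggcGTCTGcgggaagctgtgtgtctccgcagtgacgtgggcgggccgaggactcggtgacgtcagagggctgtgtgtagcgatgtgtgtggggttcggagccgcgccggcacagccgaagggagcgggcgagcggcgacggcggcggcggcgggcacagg
SMAD7 promoter, chr18:48950916-48951215, minus strand: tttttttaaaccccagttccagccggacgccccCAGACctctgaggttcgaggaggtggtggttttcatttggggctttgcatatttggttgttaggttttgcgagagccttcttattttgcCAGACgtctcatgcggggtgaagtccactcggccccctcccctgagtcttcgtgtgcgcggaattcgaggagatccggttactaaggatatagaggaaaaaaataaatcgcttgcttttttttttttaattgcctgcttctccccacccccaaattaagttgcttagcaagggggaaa
PMEPA1 promoter, chr20:57710528-57710827, minus strand: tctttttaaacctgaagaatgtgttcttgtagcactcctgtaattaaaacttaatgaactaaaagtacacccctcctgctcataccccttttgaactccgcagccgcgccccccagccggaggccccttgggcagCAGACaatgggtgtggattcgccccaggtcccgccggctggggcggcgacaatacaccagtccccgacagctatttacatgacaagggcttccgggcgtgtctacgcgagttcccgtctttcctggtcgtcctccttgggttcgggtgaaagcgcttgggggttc

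All 10 genes matched the promoter table by symbol, with 25 windows between them. A CAGAC box on either strand lay in 15 of the 25 windows and in at least 1 window of 7 of the 10 genes, the exceptions being TGFB1, FST and TGFBR2. The box is common: 45.3% of all 35116 promoter windows in the table hold it. In the windows printed above it begins 28 bases into the transcript of INHBA, 243 and 53 bases before the start of TGFB2, 85 and 61 bases before that of LTBP1, 107 bases before that of SKIL, 217 and 128 bases before that of SMAD7 and 115 bases before that of PMEPA1. The longer palindromic element GTCTAGAC lay in 0 of the 25 windows and in 0.202% of all windows. GGAATG, the core recognised by TEAD factors, lay in 14.0% of all windows and, among the 10 genes, in 1 window each of TGFB2 and TGFBR1. TGANTCA, the AP-1 core, lay in 7.71% of all windows and in 1 window each of TGFBR2 and FST. All 4 motifs were searched on both strands, and none of the 4 contains another. A match describes the letters and shows no binding.

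Normalised counts are gene counts that the authors divided by 1 size factor per library. Fold changes below compare MPI MT with WT as differences in log2(value + 1), each with its SE, and were tested with limma-trend across 17893 genes, and a gene is said to have risen or fallen where the Benjamini-Hochberg adjusted p over all of them was under 0.05. By that rule 6 of the 10 genes rose and 1 fell, against 16.0% of all tested genes higher in MPI MT and 16.6% lower. With the replicate number as a block the same counts of the 10 genes passed, against 49.8% of all tested genes in either direction (25.1% higher and 24.6% lower). In 7 of the 10 genes the libraries of the genotypes did not overlap, as was the case for 46.7% of all tested genes. The median log2 fold change was 0.48 over the 10 genes and -0.0031 over all tested genes. As the genes were picked with earlier results of these data known, these counts describe the set and are no test of it.

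**Figure D1:**
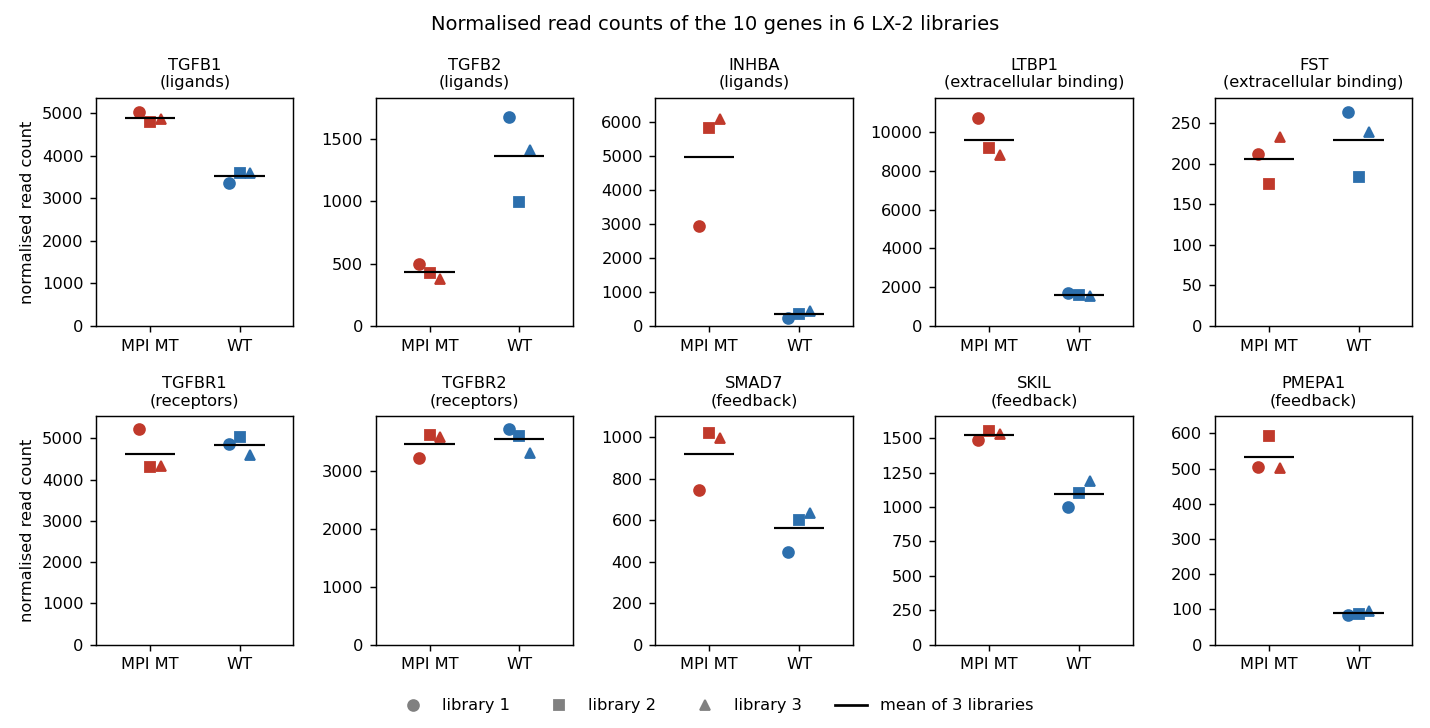
Normalised read counts (y axis, linear from 0) of each of the 10 genes in the 3 MPI MT libraries (red, left) and the 3 WT libraries (blue, right); symbols mark the library number and the line is the mean. INHBA, LTBP1 and PMEPA1 are several times higher in MPI MT, TGFB2 is lower, and FST, TGFBR1 and TGFBR2 overlap.

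The 3 ligand genes differed from one another in direction. INHBA had the largest change of the 10, TGFB1 rose by a smaller amount and TGFB2 fell. INHBA (ENSG00000122641, GRCh38 chromosome 7, 41667168 to 41705834, minus strand) encodes the beta A subunit of inhibin and activin, of which activin A is a homodimer. It had 2946, 5836 and 6094 normalised counts in the MPI MT libraries, against 247, 341 and 439.7 in the WT libraries. The genotypes were far apart, and the library numbered 1 was the lowest of its genotype in both. The mean was 4959 ± 1748 in MPI MT and 343 ± 96.5 in WT (SD, n = 3 each), a ratio of means of 14.5. The log2 fold change was 3.82 ± 0.29, with a 95% interval from 3.15 to 4.49 (limma adjusted p = 4.89e-05), the 26th largest rise of all tested genes. Between libraries of the same number, MPI MT exceeded WT 11.9, 17.1 and 13.9 times for numbers 1, 2 and 3. The values rest on 15352 reads in the MPI MT and 979 in the WT libraries. INHBA-AS1, an antisense gene inside the INHBA locus that shares no exonic base with it, averaged 18.7 normalised counts in MPI MT and 2.85 in WT libraries. The WT mean is at the floor, as 3 reads are worth 2.72 to 3.49. Whether counting used strand is unknown here, and without it, reads from opposite strands of 1 stretch cannot be told apart.

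TGFB1 (ENSG00000105329, chromosome 19, 41301587 to 41353911, minus strand) encodes the most widely studied TGF-beta isoform. It had 5019, 4794 and 4871 normalised counts in MPI MT libraries and 3360, 3582 and 3597 in WT libraries. The spread within each genotype was small beside the gap between them. This gave a log2 fold change of 0.48 ± 0.06 (95% interval 0.34 to 0.62, limma adjusted p = 6.45e-04), a ratio of means of 1.39. The gene shares 215 exonic bases with HNRNPUL1 on the other strand, whose mean was 15479 in MPI MT and 15612 in WT libraries.

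TGFB2 (ENSG00000092969, chromosome 1, 218346235 to 218444619, plus strand) encodes a second isoform that uses the coreceptor betaglycan for high-affinity binding. It went the other way, with 500.3, 428 and 379.7 normalised counts in MPI MT libraries against 1677, 997 and 1412 in WT libraries. The highest MPI MT library lay below the lowest WT library, and the WT libraries varied more among themselves. On the log2 scale the difference was -1.62 ± 0.18 (95% interval -2.04 to -1.197, limma adjusted p = 3.59e-04), and MPI MT held 0.320 of the WT mean. Same-numbered libraries gave ratios of 0.298, 0.429 and 0.269 for numbers 1 to 3. TGFB2-OT1, annotated on the same strand and sharing 1371 exonic bases with TGFB2, is not among the listed genes. Whether any of its reads were counted for TGFB2 cannot be told.

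Within a library, the ratio of TGFB1 to TGFB2 per kb of exon was 16.0, 17.8 and 20.4 in MPI MT and 3.19, 5.72 and 4.05 in WT. TGFB1 was thus the more abundant of the pair in every library, by a wider margin in MPI MT. The log2 ratio was 2.10 higher in MPI MT than in WT. Its exact two-sided permutation p was 0.1 (0.15 adjusted over the 3 pairs compared), the smallest that 3 libraries against 3 allow, so no such ratio could pass 0.05.

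**Figure D2:**
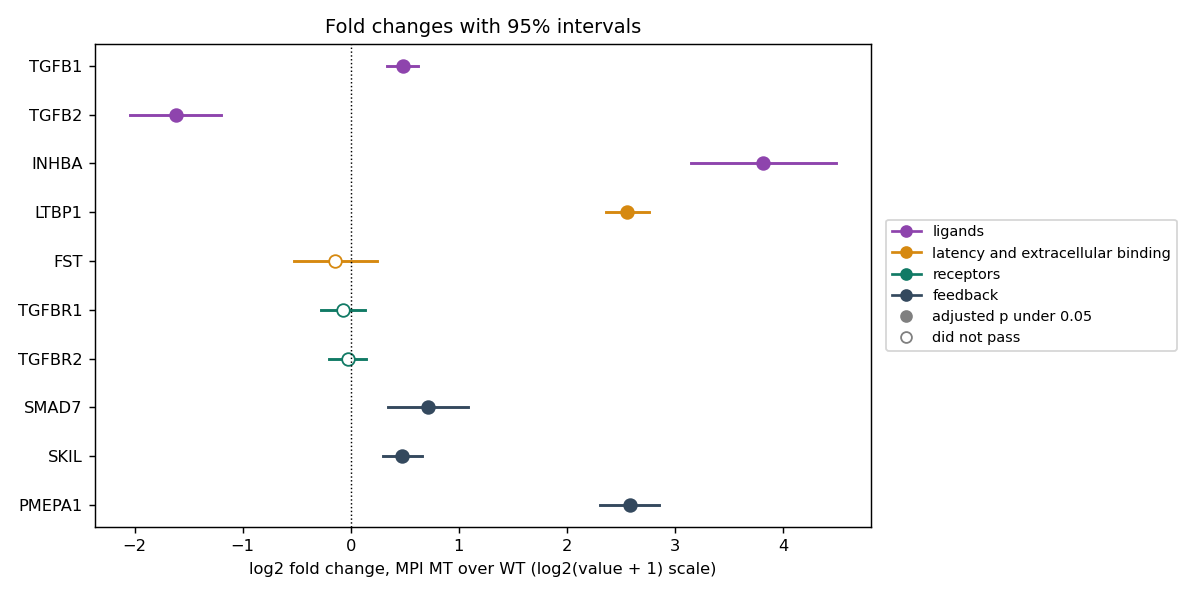
Log2 fold change of each gene, MPI MT over WT (x axis), with its 95% interval; colours mark the role of the gene, filled points passed an adjusted p of 0.05 and open points did not. INHBA (3.82), PMEPA1 (2.58) and LTBP1 (2.56) lie farthest to the right, TGFB2 (-1.62) is the one gene that fell, and the intervals of FST, TGFBR1 and TGFBR2 include 0.

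The 2 extracellular binding proteins behaved differently, with a rise of LTBP1 and no call for FST. LTBP1 (ENSG00000049323, chromosome 2, 32946972 to 33399509, plus strand) had 10748, 9203 and 8844 normalised counts in MPI MT libraries and 1717, 1596 and 1556 in WT libraries. The spread within each genotype was narrow and the groups were well separated. LTBP1 rose by 2.56 ± 0.09 on the log2 scale (95% interval 2.36 to 2.76, limma adjusted p = 1.42e-06), the 99th largest rise of all tested genes, and the ratio of means was 5.91. Same-numbered libraries gave 6.26, 5.77 and 5.68. An antisense gene, AC019127.1, shares 249 exonic bases with LTBP1 and is not among the listed genes.

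FST (ENSG00000134363, chromosome 5, 53480409 to 53487134, plus strand) encodes follistatin, which binds activin tightly and blocks its access to receptors. It had 212, 174 and 232 normalised counts in MPI MT libraries and 263, 184 and 239 in WT libraries. The groups overlapped, and the lowest value in either was that of the library numbered 2. The log2 fold change was -0.14 ± 0.17 (limma adjusted p = 0.549), and its 95% interval from -0.52 to 0.24 includes both a fall and a rise.

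Activin A and follistatin act as ligand and trap, so their transcripts were also set against each other. Per kb of exon, the ratio of INHBA to FST was 4.98, 11.97 and 9.38 in the MPI MT libraries and 0.335, 0.663 and 0.658 in the WT libraries. FST exceeded INHBA in every WT library and INHBA exceeded FST in every MPI MT library. The log2 ratio was 3.96 higher in MPI MT (exact two-sided permutation p = 0.1, the smallest possible, and 0.15 adjusted over the 3 pairs). In both genotypes the ratio was lowest in the library numbered 1.

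**Figure D3:**
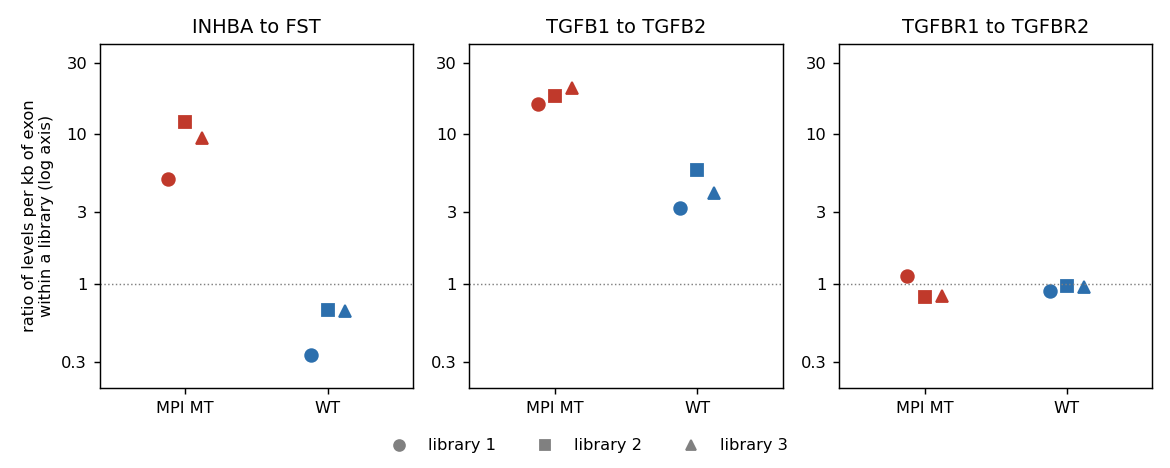
Ratio of the levels per kb of exon of 2 genes within each library (y axis, log scale), for INHBA to FST, TGFB1 to TGFB2 and TGFBR1 to TGFBR2, with MPI MT on the left of each panel and WT on the right; symbols mark the library number and the dotted line is a ratio of 1. The first pair lies above 1 in MPI MT and below 1 in WT, the second is above 1 throughout, and the third lies near 1 in both genotypes.

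Neither TGF-beta receptor gene passed the test. TGFBR1 (ENSG00000106799, chromosome 9, 99104038 to 99154192, plus strand), the type I receptor kinase that phosphorylates SMADs, had 5223, 4306 and 4324 normalised counts in MPI MT libraries and 4869, 5039 and 4587 in WT libraries. The MPI MT library numbered 1 was the highest of the 6 and the other two MPI MT libraries were the lowest. The log2 fold change was -0.07 ± 0.09 (95% interval -0.27 to 0.13, limma adjusted p = 0.583). Without MPI MT library 1 it was -0.16 (limma adjusted p = 0.0475). Without both libraries numbered 1 it was also -0.16 (limma adjusted p = 0.0114). The lack of a call thus depends on keeping MPI MT library 1. More of all tested genes passed in those fits, 4415 higher and 4291 lower in the first and 4989 and 4788 in the second. The main fit had 2866 higher and 2963 lower. With the replicate number as a block, TGFBR1 did not pass (limma adjusted p = 0.369).

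TGFBR2 (ENSG00000163513, chromosome 3, 30606502 to 30694142, plus strand), the type II receptor that binds the ligand and activates TGFBR1, had 3212, 3615 and 3574 normalised counts in MPI MT libraries and 3722, 3596 and 3301 in WT libraries. The values of the genotypes were interleaved. The log2 fold change was -0.030 ± 0.076 (95% interval -0.20 to 0.14, limma adjusted p = 0.792). Without MPI MT library 1 it was 0.024 and without WT library 1 it was 0.0069, so its sign rests on those libraries. Per kb of exon, the ratio of TGFBR1 to TGFBR2 was 1.12, 0.819 and 0.832 in MPI MT and 0.899, 0.963 and 0.955 in WT libraries (log2 difference -0.040, exact two-sided permutation p = 0.9, also adjusted over the 3 pairs), which was 0.039 without MPI MT library 2 and 0.027 without MPI MT library 3.

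The 3 feedback genes rose, by unequal amounts. PMEPA1 (ENSG00000124225, chromosome 20, 57648392 to 57711536, minus strand) encodes a membrane protein that sequesters receptor-regulated SMADs. It had 504, 592 and 500.5 normalised counts in MPI MT libraries against 82.6, 86.2 and 95.6 in WT libraries. Each MPI MT library was more than 5 times above its same-numbered WT library, with ratios of 6.10, 6.87 and 5.24. The log2 difference was 2.58 ± 0.12 (95% interval 2.30 to 2.85, limma adjusted p = 4.93e-06), the 97th largest rise of all tested genes. NKILA, an antisense RNA gene that shares 343 exonic bases with PMEPA1, averaged 134 normalised counts in MPI MT and 25.1 in WT libraries. As the strand setting is unknown, how far the reads of these genes mix cannot be told.

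SMAD7 (ENSG00000101665, chromosome 18, 48919853 to 48952052, minus strand) encodes the inhibitory SMAD that blocks and helps degrade the type I receptor. It had 745, 1020.2 and 996 normalised counts in MPI MT libraries and 446, 601 and 634 in WT libraries. The library numbered 1 was the lowest in both genotypes, and the lowest MPI MT library was above the highest WT library. The rise on the log2 scale was 0.72 ± 0.16 (95% interval 0.35 to 1.09, limma adjusted p = 0.0105). Taken by number, the ratios were close to each other, at 1.67, 1.70 and 1.57.

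SKIL (ENSG00000136603, chromosome 3, 170357678 to 170396835, plus strand) encodes SnoN, a nuclear corepressor that binds SMADs at their target genes. It had 1485, 1552 and 1532 normalised counts in MPI MT libraries and 1001, 1104 and 1189 in WT libraries. The groups did not overlap and the MPI MT libraries lay close together. Its log2 fold change was 0.48 ± 0.08 (95% interval 0.29 to 0.66, limma adjusted p = 0.00242), similar in size to that of TGFB1. SKIL and TGFB1 ranked 2125th and 2103rd among rises, far below PMEPA1, LTBP1 and INHBA.

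Levels of different genes were compared per kb of the union of their annotated exons. In MPI MT libraries TGFB1 was highest at 1512 ± 35.4 normalised counts per kb (SD, n = 3), followed by LTBP1 at 1309.6 ± 138. TGFBR2 at 737 ± 47.2, TGFBR1 at 675 ± 76.6 and INHBA at 597 ± 211 came next, and the ranges of neighbours among these 3 overlapped. SKIL at 196 ± 4.41 and SMAD7 at 183 ± 30.2 overlapped too, as did PMEPA1 at 94.7 ± 9.19 with TGFB2 at 84.6 ± 11.8 and TGFB2 with FST at 69.4 ± 9.89.

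In WT libraries TGFB1 was again highest, at 1085 ± 41.0 normalised counts per kb, ahead of TGFBR2 at 753 ± 46.0 and TGFBR1 at 706 ± 33.3, whose ranges overlapped. TGFB2 at 264 ± 66.6 and LTBP1 at 221 ± 11.4 formed the next pair of overlapping neighbours. SKIL at 141 ± 12.1, SMAD7 at 111 ± 19.9, FST at 77.0 ± 13.7, INHBA at 41.3 ± 11.6 and PMEPA1 at 15.7 ± 1.196 followed without overlap. INHBA thus stood in 5th place of 10 in MPI MT and 9th in WT, LTBP1 in 2nd place in MPI MT and 5th in WT, and TGFB2 in 9th place in MPI MT and 4th in WT. Divided by the longest transcript instead, INHBA stood in 3rd place in MPI MT, and the ranges of PMEPA1 and TGFB2 there did not overlap. In WT the ranges of SKIL, SMAD7, FST and INHBA then overlapped from each to the next.

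**Figure D4:**
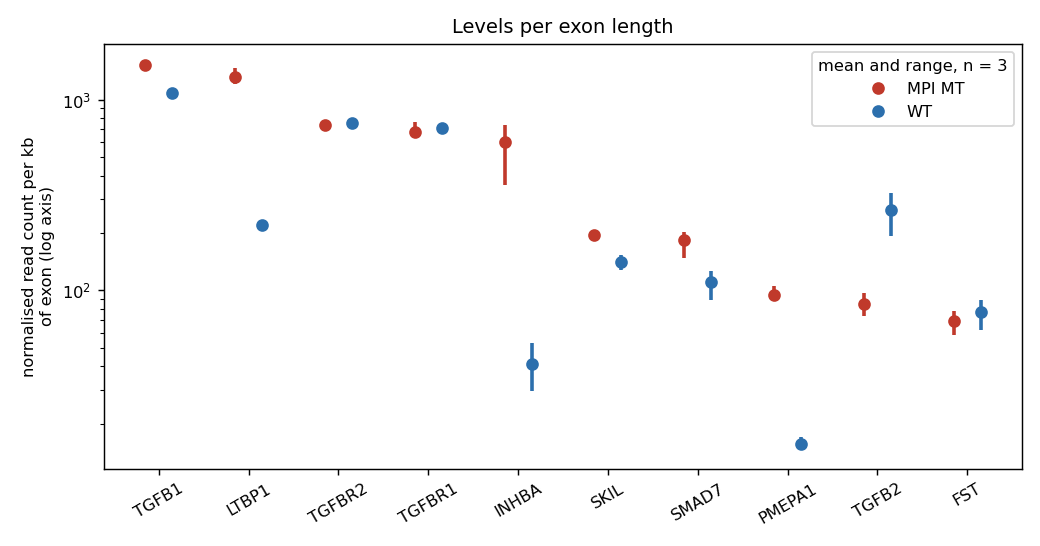
Normalised read count per kb of exon (y axis, log scale) of the 10 genes, ordered by their mean in MPI MT, with the mean as a point and the range of the 3 libraries as a bar for MPI MT (red, left) and WT (blue, right). TGFB1 is highest in both genotypes, while LTBP1, INHBA and PMEPA1 are well above and TGFB2 well below their WT levels.

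Beyond the 10 genes, 97 other genes of the pathway were taken from 7 lists, of which 87 were tested. Of these, 21 rose and 22 fell, so 49.4% passed the test, against 32.6% of all tested genes. The lists too were chosen with earlier results of these data known, so this share describes them and is no test of them. The median log2 fold change was 0.06, against -0.0031 over all tested genes. For the counts by list below, 16.0% of all tested genes rose and 16.6% fell. With the replicate number as a block, 25.1% of all tested genes were higher in MPI MT and 24.6% lower. Genes below were chosen by size of change among those with a mean of at least 100 normalised counts in 1 genotype; where a list had up to 5 genes in 1 direction, the rest are named too, a choice made after their values were seen.

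Among the other ligands, 0 rose and 2 fell of 7 tested genes (median 0.11), or 2 and 2 with the replicate number as a block. MSTN, which encodes myostatin, was at 6.50, 14.1 and 10.2 normalised counts in MPI MT libraries and 394, 289.9 and 339.9 in WT libraries (-4.97 ± 0.27 on the log2 scale, limma adjusted p = 1.03e-05). INHBB, the beta B subunit of inhibin and activin, fell too (-1.34 ± 0.18, limma adjusted p = 9.43e-04), at 116 ± 18.6 in MPI MT and 297 ± 59.5 in WT libraries. INHBB thus moved against INHBA. Of the other receptors and coreceptors, 0 rose and 2 fell of 9 tested genes (median -0.13), or 1 and 3 with the block. ENG, the coreceptor endoglin, averaged 2561 ± 170 in MPI MT and 3130 ± 294 in WT libraries (log2 fold change -0.29 ± 0.09, limma adjusted p = 0.0355), and ACVRL1, a type I receptor, was the other. The call of ENG was lost without MPI MT library 2 or 3 or WT library 2 or 3, with an adjusted p of up to 0.131 in these 4 fits. That of ACVRL1 was lost without MPI MT library 2 or any 1 of the WT libraries (adjusted p of up to 0.130).

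Genes of latency and activation went both ways, with 5 up and 4 down of 16 tested (median 0.04). FBN1, which encodes fibrillin-1 of the microfibrils that hold latent TGF-beta, averaged 21688 ± 1343 in MPI MT and 8156 ± 406 in WT libraries (1.41 ± 0.08, limma adjusted p = 9.63e-06). MMP14, a membrane-bound matrix protease, averaged 4961 ± 321 in MPI MT and 2214 ± 98.8 in WT libraries (1.16 ± 0.07, limma adjusted p = 1.66e-05). LTBP2, ITGB5 and the proprotein convertase gene FURIN rose too, the call of LTBP2 being lost without MPI MT library 2, without WT library 2 or 3 and with upper-quartile rescaling (adjusted p of up to 0.108). The integrin gene ITGB8 fell, at 159 ± 51.0 in MPI MT and 358 ± 64.6 in WT libraries (limma adjusted p = 0.00524). ITGB3, another integrin gene, fell too (-0.67 ± 0.13, limma adjusted p = 0.00492), as did ITGB6 and LRRC32, which encodes the latent TGF-beta anchor GARP. The call of LRRC32 was lost without MPI MT library 2 or 3 or WT library 1 or 2 (adjusted p of up to 0.103).

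Of 6 tested extracellular antagonists, 2 rose and 2 fell (median 0.16). FSTL3, a follistatin-like protein that also binds activin, averaged 1259 ± 228 in MPI MT and 647 ± 53.8 in WT libraries (0.95 ± 0.14, limma adjusted p = 0.00116). GREM1, an antagonist of bone morphogenetic proteins, rose by 0.70 ± 0.18 (limma adjusted p = 0.0186), a call lost without MPI MT library 2 or 3 or WT library 1 or 2 (adjusted p of up to 0.0692). FSTL1 fell, at 20554 ± 3312 in MPI MT and 36865 ± 6311 in WT libraries, and the proteoglycan gene BGN was the other that fell, with an adjusted p of 0.0507 without WT library 2.

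SMAD transducers and partners had 1 rise and 1 fall among 10 tested genes (median -0.04), or 1 and 4 with the block. RNF111, the ubiquitin ligase Arkadia that degrades SMAD7 and SnoN proteins, rose by 0.27 ± 0.07 on the log2 scale (limma adjusted p = 0.0144), a call lost without MPI MT library 2 or WT library 2 or 3 (adjusted p of up to 0.0765). The adaptor gene DAB2 fell (-0.47 ± 0.08, limma adjusted p = 0.00262). SMAD2 averaged 4159 ± 150.4 in MPI MT and 4127 ± 219 in WT libraries, SMAD3 averaged 13798 ± 453 in MPI MT and 12669 ± 1255 in WT libraries, and SMAD4 averaged 3505 ± 92.5 in MPI MT and 3577 ± 84.4 in WT libraries. None of the 3 passed (limma adjusted p = 0.909, 0.290 and 0.738). They were named as the pathway's own transducers after their values were seen.

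Among 16 other negative regulators, 3 rose and 6 fell (median 0.02), or 6 and 6 with the block and 7 and 6 without MPI MT library 1. Without MPI MT library 2 or 3 or WT library 1 or 3 the counts were 3 and 4. Without WT library 2 the counts were 3 and 3. SMURF2 and SMURF1, ubiquitin ligases that SMAD7 brings to the receptors, rose by 0.58 ± 0.08 and 0.53 ± 0.06 on the log2 scale (limma adjusted p = 0.00104 and 3.74e-04), and TGIF1 was the third that rose. SMAD6, the inhibitory SMAD that acts mainly on bone morphogenetic protein signals, fell, at 457 ± 65.2 in MPI MT and 809 ± 174 in WT libraries (-0.81 ± 0.17, limma adjusted p = 0.00808). BAMBI, a decoy receptor, fell too (-0.82 ± 0.19, limma adjusted p = 0.0126), with an adjusted p of 0.0537 without WT library 2. TGIF2 and LDLRAD4 fell and kept their calls under all alternatives. PPM1A and ZEB2 fell as well, but both calls were lost without MPI MT library 2 or 3 or any 1 of the WT libraries. The adjusted p was up to 0.157 for PPM1A, lost with TMM rescaling and edgeR too, and up to 0.165 for ZEB2.

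Of 23 tested transcriptional targets, 10 rose and 5 fell (median 0.29). ANGPTL4, a lipoprotein lipase inhibitor, was at 154, 547 and 545 normalised counts in MPI MT libraries and 22.7, 39.6 and 40.4 in WT libraries (3.40 ± 0.47, limma adjusted p = 9.88e-04), and without MPI MT library 1 its log2 fold change was 4.001. TNFAIP6, a hyaluronan-binding protein, averaged 456 ± 40.2 in MPI MT and 64.6 ± 13.5 in WT libraries (2.82 ± 0.17, limma adjusted p = 1.42e-05). POSTN, the matricellular protein periostin, was at 6.50, 4.69 and 3.07 in MPI MT libraries, which held 15 reads in all, and 255, 112 and 116.8 in WT libraries; the log2 difference of -4.75 ± 0.38 (limma adjusted p = 5.68e-05) was -4.002 with a pseudocount of 5. COL1A2, a chain of type I collagen, fell too (-1.37 ± 0.38, limma adjusted p = 0.0235). That call was lost without MPI MT library 2 or 3 or any 1 of the WT libraries, with an adjusted p of up to 0.0815.

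The other targets that fell were the smooth muscle genes ACTA2 and TAGLN and the cell cycle inhibitor gene CDKN1A, whose call was lost without WT library 2 or 3 (adjusted p of up to 0.0621). CCN2, a matricellular protein gene and well-known TGF-beta target, averaged 2627 ± 48.7 in MPI MT and 2601 ± 800.3 in WT libraries and did not pass; it was named after its values were seen.

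**Figure D5:**
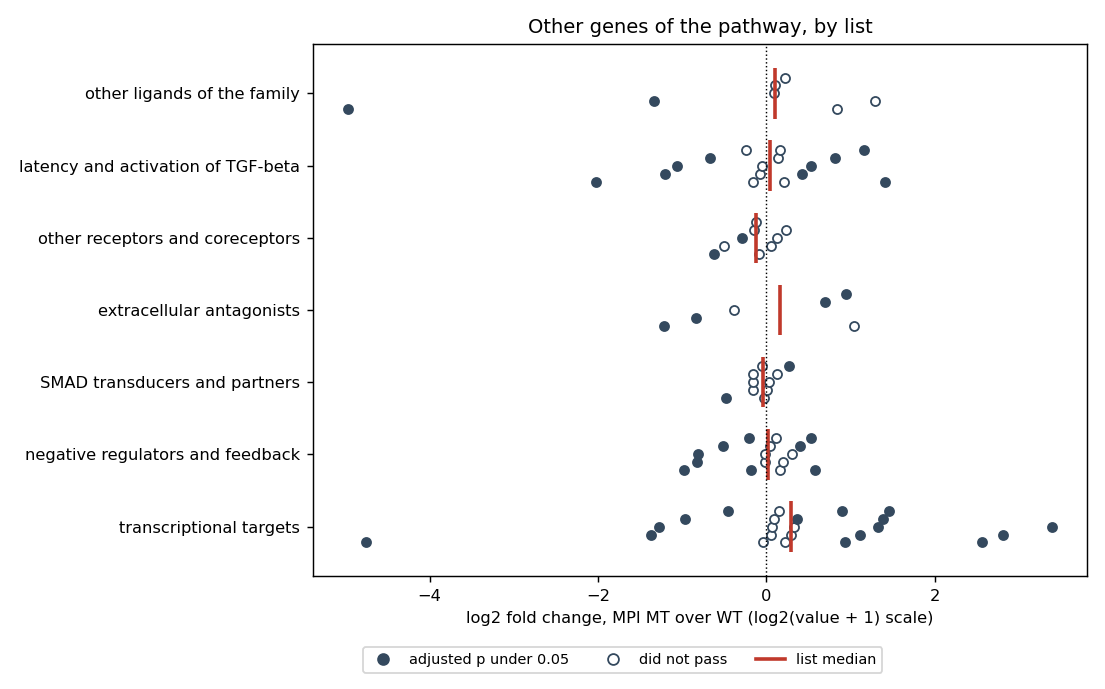
Log2 fold change, MPI MT over WT (x axis), of the tested genes in 7 lists of other pathway genes (rows, spread vertically for legibility); filled points passed an adjusted p of 0.05, open points did not, and the red bar is the list median. Medians lie between -0.13 for other receptors and 0.29 for transcriptional targets, with genes on both sides of 0 in each list.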

How the data were processed

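RNA of 6 LX-2 libraries (3 per genotype) was made with TRIzol, poly(A) selection and random priming and sequenced as read pairs on an Illumina HiSeq, per the labels' protocols. The submitters' processing notes list, without roles, STAR 2.5.2b, Subread 1.5.2, featureCounts, Trimmomatic 0.36 and DESeq2, with GRCh38 as the build. Annotation release and strand setting: not given in the sources used here. The authors deposited 1 table with a signal per library, whose unit the header does not name. Per library, 100% of the values lay within 0.01 read of a whole multiple of 1 step, as counts divided by a size factor (0.859 to 1.10) would be, so whole reads were recovered. Such values hide any change in the RNA content of a cell. The authors deposited log2 fold changes and p-values too, used as an alternative. The table holds genes with a mean of at least 9.83, and 3 reads are worth 2.72 to 3.49, counting error only. The 10 members lie far above that in each library. LUM in MPI MT lies below it, POSTN in MPI MT near it and the WT mean of INHBA-AS1 at it.

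The main test was limma-trend (limma 3.58.1, R 4.3.3; trend and robust) on log2(value + 1), fitted to genotype alone over 17893 genes (mean over the libraries 10 or more); it was tested on simulated data. Fold changes of low genes are understated on this scale. edgeR 4.0.16 and DESeq2 1.42.0 on recovered reads were alternatives: edgeR called 3007 genes higher and 2872 lower. The other alternatives were the replicate block, each library left out, both libraries numbered 1 left out, other scalings, filters and pseudocounts, and the authors' columns. Coordinates and exon lengths are from GENCODE 29 on GRCh38, a release chosen here that holds 17828 of the 17911 gene IDs. Of the list symbols, 1 was matched by gene ID.

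Replicates of a genotype differed by more than counting noise (chi-square per gene 2.78 to 35.8), so none were merged. Deviations from the genotype means gave correlations of 0.545, 0.189 and 0.276 for the pairs of like number. Each exceeds 0.1, so the numbers may pair the libraries; this comes from the data, as the labels state no batch. Errors and p-values in the text are nonetheless from the unpaired fit, and the block was an alternative. MPI MT library 2 with WT library 3 (0.299) and MPI MT library 3 with WT library 2 (0.168) exceeded 0.1 as well. The correlations thus do not single out the pairs of like number among libraries 2 and 3. The members, lists and alternatives were chosen with earlier results of these data known. Named genes were the 10 members, MPI and, per list, the 2 largest rises and 2 largest falls among called genes averaging 100 or more in 1 genotype.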

Additional observations from a re-analysis of the deposited data

How the results depend on the processing

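Of the 10 genes, 8 kept direction and side of the threshold under all 18 alternatives, among them the 7 that passed. Their log2 fold changes ranged from 3.602 to 4.16 for INHBA, 0.43 to 0.50 for TGFB1, -1.83 to -1.45 for TGFB2, 2.48 to 2.62 for LTBP1, 0.56 to 0.86 for SMAD7, 0.41 to 0.53 for SKIL and 2.5004 to 2.64 for PMEPA1, with a largest adjusted p of 0.0439, for SMAD7. FST ranged from -0.29 to -0.028 and did not pass in any. TGFBR1 passed without MPI MT library 1 (-0.16) and without both libraries numbered 1 (-0.16), and ranged from -0.16 to -0.023 with 1 library left out. TGFBR2 did not pass in any fit, but its sign turned without both libraries numbered 1 (0.061), without MPI MT library 1 (0.024) and without WT library 1 (0.0069), in a range from -0.080 to 0.024 with 1 library left out. The TGFBR1 to TGFBR2 log2 difference ranged from -0.19 to 0.039, turning positive without MPI MT library 2 (0.039) or 3 (0.027).

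The replicate block changed no call among the 10 genes. Over all genes it gave 4494 higher and 4410 lower, of which 5824 calls were shared with the fit without the block, and edgeR with the replicate block gave 4640 higher. Without both libraries numbered 1, 4989 were higher and 4788 lower. With 1 library left out, 1749 to 4415 were higher and 2036 to 4291 lower. Changed genes numbered 4 among other ligands with the replicate block, in limma and in edgeR alike. Among other receptors they numbered 4 with either blocked fit, 6 without both libraries numbered 1 and 0 to 4 with 1 library left out. Among negative regulators the numbers higher and lower were 6 and 6 with either blocked fit and 7 and 6 without both libraries numbered 1. With 1 library left out, 3 to 7 of them were higher and 3 to 6 lower. Among SMAD transducers, changed genes numbered 5 with either blocked fit and with upper-quartile rescaling, 6 without both libraries numbered 1 and 1 to 4 with 1 library left out. The causes were not tested.

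Per kb of the longest transcript, MPI MT and WT levels were 1768 and 1269 for TGFB1, 818 and 56.5 for INHBA, 1516 and 256 for LTBP1 and 110 and 18.2 for PMEPA1. FST and SKIL were at 81.2 and 212 in MPI MT, and TGFBR1 at 742 in WT. Reads in the WT libraries together were fewest for PMEPA1, FST and INHBA, at 255, 673 and 979. The SEs did not follow depth, at 0.12 for PMEPA1, 0.17 for FST and 0.29 for INHBA. TGFB2, with 4033 reads in WT, had an SE of 0.18.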
